A study of Mus musculus with 18 samples.

Results

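The 9 genes described here are Six2, Six4 and Six5, Eya1, Eya2, Eya3 and Eya4, and Dach1 and Dach2. They are 9 of the 53465 genes in the deposited count table, picked by gene family with earlier results of these libraries known, among them the difference of Eya2 between genotypes in the anterior piece. RNA was sequenced from 9 mouse embryos at E9 (embryonic day 9), each dissected into 2 pieces, which gave 18 libraries. The posterior piece held the axial bud with the 10 to 12 newest somites, and the anterior piece held the older part of the trunk, without the head regions that form no somites. The controls were 5 embryos with 20 to 24 somites, and 4 embryos were mutant for both Meis1 and Meis2 (DKO), with 20 to 24 somites. The DKO embryos had Meis1 and Meis2 deleted conditionally with Delta1Cre, a Cre recombinase named for the Notch ligand gene Delta1, so cells without Cre activity keep both genes; the alleles carried by the controls are not given in the sources used here. The study set out to find Meis targets in skeletal patterning along the axis, and the 2 pieces separate early patterning from later somite differentiation.

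The Six-family genes encode homeodomain transcription factors that bind DNA. The Eya proteins are their transcriptional coactivators and also carry a phosphatase domain, and the Dach proteins are nuclear cofactors of the Ski/Sno family that can turn the same complexes towards repression. Together with Pax factors the network acts in sense organs and placodes, in the dermomyotome and its muscle precursors, and in the nephrogenic mesenchyme, where Six2 maintains nephron progenitors and Eya1 acts upstream of it. Meis proteins are homeodomain factors whose in vitro binding sequence has the core TGACAG.

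Total expected counts ran from 12650973 to 38180348 per library. Levels are given in CPM, the expected counts per 1000000 scaled counts of a library, and 3 counts correspond to 0.079 to 0.233 CPM. All 9 genes passed the filter on low counts in every comparison, and the lowest mean over the 18 libraries was 75.7 counts. The labels were checked first with the deleted genes. Meis1 averaged 125 ± 8.64 CPM (SD, n = 5) in anterior controls and 102 ± 9.51 CPM (n = 4) in anterior DKO, and 84.4 ± 15.2 against 57.5 ± 11.8 CPM in the posterior piece. Meis2 averaged 190 ± 10.0 against 143 ± 11.3 CPM in the anterior piece and 143 ± 16.7 against 99.4 ± 11.3 CPM in the posterior piece. All 4 differences were downward, with log2 fold changes from -0.55 to -0.30, and none passed edgeR's quasi-likelihood test (adjusted p from 0.0522 to 0.336); much of the Meis transcript was therefore still counted, and gene-level counts do not show whether it carries the deletion. Control embryo 1 carries a female label, but both of its libraries had Xist at 0.211 to 0.34 CPM and a summed level of 4 Y-linked genes at 151 to 162 CPM, in the range of the libraries labelled male. Leaving that embryo out left all 36 results of the 9 genes that use it on the same side of the threshold. Markers of the axial bud summed to 279 to 548 CPM in posterior libraries and 17.9 to 23.2 CPM in anterior ones, the 5 somite markers were detected in every group, and Otx2 of the forebrain and midbrain and Oc90 of the otic vesicle were at or under 3 counts in every library.

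The 9 genes divided by position along the axis. In control embryos all 9 differed between the pieces by edgeR's quasi-likelihood test at an adjusted p of 0.05, against a background of 25.4% of 15294 genes. Six2, Six4, Eya1 and Eya3 were higher in the posterior piece, and Six5, Eya2, Eya4, Dach1 and Dach2 were higher in the anterior piece. For all 9 the control libraries of the pieces did not overlap, which held for 20.1% of all genes. In DKO embryos 6 of the 9 passed, against 18.5% of 15777 genes, with Six4 higher in the posterior piece and Six5, Eya2, Eya4, Dach1 and Dach2 higher in the anterior piece; the same 6 had pieces that did not overlap, against 23.5% of all genes. In whole pieces, fewer cells of a type and less RNA per cell cannot be told apart. Tests between pieces treat the libraries as separate samples, although each embryo gave both. Those of Eya2 also use the anterior libraries on which it was chosen.

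**Figure D1:**
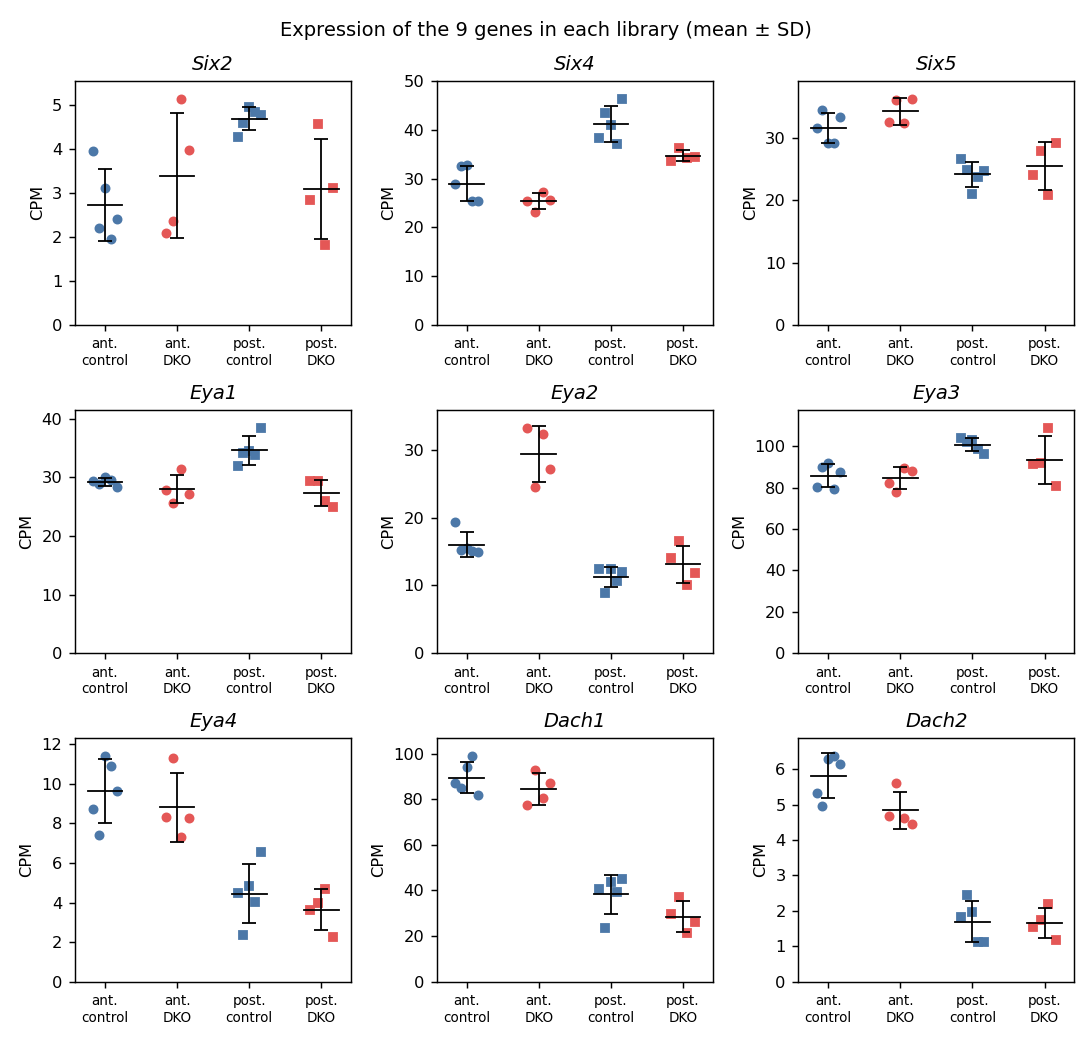
Level of each of the 9 genes in CPM (vertical axis, starting at 0) in every library, by piece and genotype; points are libraries in replicate order, and black lines give the mean ± SD (n = 5 controls, n = 4 DKO). Dach1 lies at 77.5 to 98.9 CPM in the anterior libraries and at 21.3 to 45.0 CPM in the posterior ones, and anterior Eya2 is the clearest separation of DKO from control.

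The Dach cofactors showed the steepest differences between the pieces. Dach1 (GRCm38 chromosome 14, 97786853 to 98169765, minus strand) stood at 87.2, 85.1, 94.3, 98.9 and 81.9 CPM in the anterior pieces of control embryos 1 to 5, and at 40.6, 23.6, 43.5, 39.3 and 45.0 CPM in their posterior pieces. The anterior DKO libraries 1 to 4 had 77.5, 92.7, 80.5 and 87.2 CPM, and the posterior ones 29.8, 37.2, 21.3 and 26.0 CPM. Every anterior library was thus well above every posterior one, in both genotypes. The log2 fold change of posterior over anterior was -1.22 in controls (SE 0.14, adjusted p = 3.62e-05 by edgeR) and -1.55 in DKO (SE 0.146, adjusted p = 5.7e-05). Within single embryos it ran from -1.85 to -0.87 in the 5 controls and from -1.92 to -1.32 in the 4 DKO embryos.

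Dach2 (chromosome X, 113297510 to 113836386, plus strand), the lowly expressed paralogue, followed the same direction. Its anterior levels in control embryos 1 to 5 were 5.32, 4.95, 6.29, 6.37 and 6.15 CPM, and its posterior levels 1.84, 2.45, 1.97, 1.12 and 1.11 CPM. In DKO embryos 1 to 4 it stood at 4.68, 5.61, 4.62 and 4.45 CPM anteriorly and at 1.55, 1.74, 2.19 and 1.18 CPM posteriorly. The pieces were fully separated in both genotypes, while within each piece the genotypes overlapped. Between the pieces the log2 fold change was -1.76 in controls (SE 0.218, adjusted p = 6.65e-05 by edgeR) and -1.53 in DKO (SE 0.201, adjusted p = 0.000436). Per kilobase of merged exon, Dach1 made up most of the Dach transcript, with means of 95.4% to 96.5% over the 4 groups.

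Eya4 (chromosome 10, 23102963 to 23350786, minus strand), a coactivator also known as a human deafness and cardiomyopathy gene, had the third anterior bias beyond 1 on the log2 scale in both genotypes. It stood at 8.72, 7.43, 11.4, 10.9 and 9.64 CPM in the anterior and at 4.48, 2.36, 4.84, 4.04 and 6.54 CPM in the posterior pieces of control embryos 1 to 5. In DKO embryos 1 to 4 its anterior levels were 8.34, 11.3, 7.33 and 8.25 CPM and its posterior levels 3.63, 3.97, 4.69 and 2.25 CPM. The lowest anterior library in each genotype was above the highest posterior one. Posterior over anterior was -1.12 on the log2 scale in controls (SE 0.221, adjusted p = 0.00236 by edgeR) and -1.27 in DKO (SE 0.221, adjusted p = 0.00249). Across the 18 libraries Eya4 and Dach1 had a Pearson r of 0.92 in log2 CPM, and 0.60 once each group's mean was removed, given as a description because the pairs share their libraries.

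**Figure D2:**
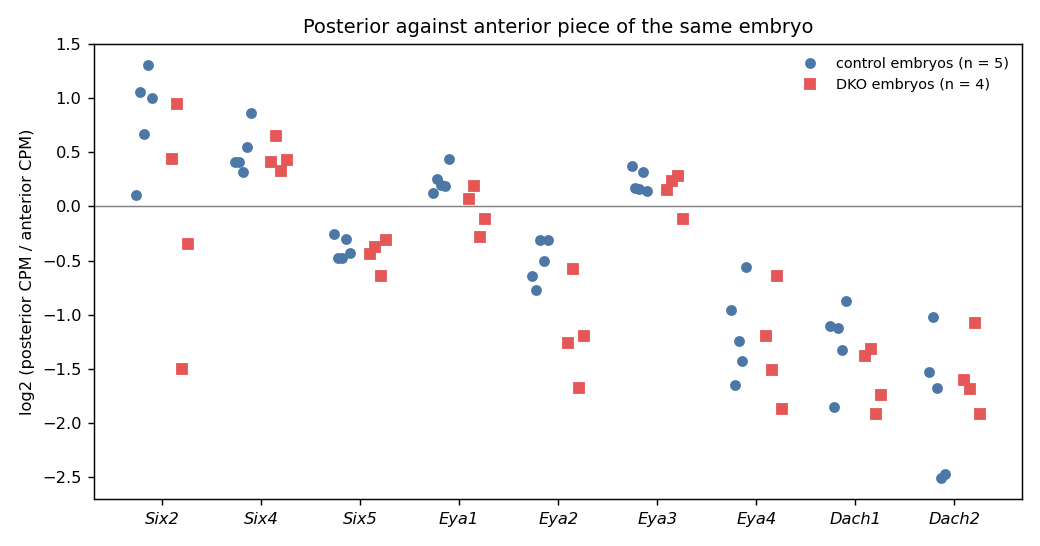
Log2 ratio of posterior to anterior CPM within each embryo (vertical axis) for the 9 genes, with circles for the 5 control and squares for the 4 DKO embryos; the grey line marks equal levels. Six5, Eya2, Eya4, Dach1 and Dach2 lie below 0 in all 9 embryos and Six4 above 0 in all 9, while the DKO embryos lie on both sides of 0 for Six2, Eya1 and Eya3.

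Eya2 (chromosome 2, 165595032 to 165771727, plus strand), a coactivator known from cranial placodes and the early muscle lineage, was higher in the anterior piece in both genotypes. Its anterior levels were 19.3, 15.2, 15.5, 15.1 and 14.9 CPM in control embryos 1 to 5 and 33.3, 24.6, 32.4 and 27.2 CPM in DKO embryos 1 to 4. Every anterior DKO library was above every anterior control library. Its posterior levels were 12.4, 8.93, 12.4, 10.7 and 12.0 CPM in controls and 14, 16.5, 10.1 and 11.8 CPM in DKO, and here the genotypes overlapped. The log2 fold change of posterior over anterior was -0.50 in controls (SE 0.111, adjusted p = 0.00497 by edgeR) and -1.16 in DKO (SE 0.159, adjusted p = 0.000583). Both values use the anterior libraries on which Eya2 was chosen, so they are a description, the DKO one above all.

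The anterior difference of Eya2 between genotypes was among the values that led to the choice of these genes, so it is a description with no support drawn from it. Its log2 fold change of DKO over control was 0.88 (SE 0.111), and 1 of the 9 genes was called in that comparison, which called 0.0394% of 15238 genes (6 genes); nothing is read from that count. The call is lost when any 1 of 6 embryos (control 2, 3, 4 or 5, DKO 1 or 3) is left out, with Eya2 then at an adjusted p of 0.0514 to 0.144 and a log2 fold change that stays between 0.81 and 0.95. The anterior genotype groups did not overlap for 1 of the 9 genes, again Eya2, and for 5.07% of all genes. The other 8 genes had anterior log2 fold changes from -0.26 (Dach2) to 0.31 (Six2, which was 0.05 without DKO embryo 3 and 0.49 without control embryo 1), none of which passed, and the median over the 9 was -0.06 against 0 over all genes tested.

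Per kilobase, Eya2 held 21.3% ± 2.46 (SD, n = 5) of the summed Eya level in anterior controls, with a range of 19.7% to 25.6%, and 33.6% ± 2.79 (n = 4) in anterior DKO, with a range of 31.2% to 37.1%. In the posterior piece the shares were 14.3% ± 1.56 and 17.8% ± 3.58. The ubiquitous paralogue Eya3 held the largest mean share in all 4 groups, at 59.9%, 50.9%, 67.2% and 66.5% in anterior control, anterior DKO, posterior control and posterior DKO. These shares contain the anterior Eya2 difference and carry no test.

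**Figure D3:**
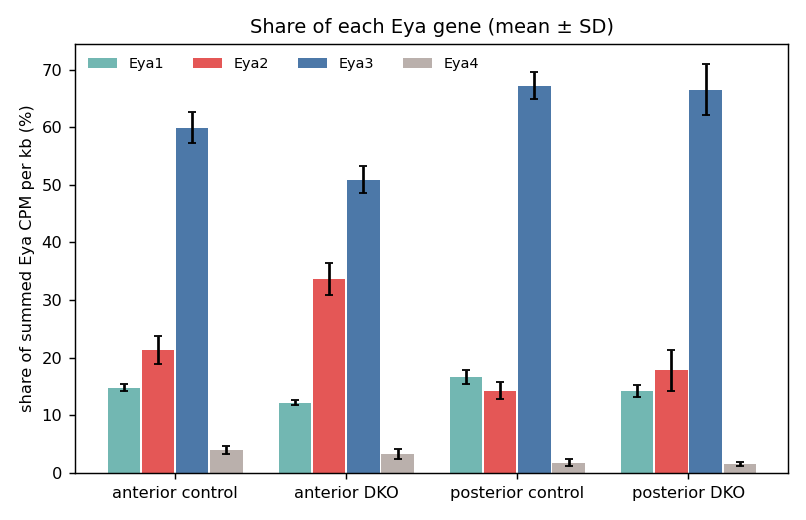
Share of each Eya gene in the summed Eya CPM per kilobase (vertical axis, percent, starting at 0) in the 4 groups; bars are means and error bars SD over libraries (n = 5 controls, n = 4 DKO). Eya2 stands at 21.3% in anterior controls and 33.6% in anterior DKO, and Eya3 holds the largest share in each group.

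Six5 (chromosome 7, 19094594 to 19098549, plus strand), a widely expressed Six-family factor whose gene neighbours the myotonic dystrophy kinase gene, was higher in the anterior piece in both genotypes. It stood at 31.6, 34.6, 29.2, 29.3 and 33.4 CPM in the anterior and at 26.6, 24.9, 21.0, 23.7 and 24.7 CPM in the posterior pieces of control embryos 1 to 5. In DKO embryos 1 to 4 its anterior levels were 32.6, 36.1, 32.4 and 36.3 CPM and its posterior levels 24.1, 28.0, 20.8 and 29.3 CPM. The pieces were apart in each genotype, and the genotypes overlapped in each piece. On the log2 scale posterior over anterior was -0.39 in controls (SE 0.0754, adjusted p = 0.00214 by edgeR) and -0.42 in DKO (SE 0.109, adjusted p = 0.0208); the DKO call was lost without DKO embryo 1, 2 or 3 (adjusted p = 0.115, 0.0628 and 0.0532).

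Six4 (chromosome 12, 73099609 to 73113456, minus strand), a factor active in muscle precursors, was higher in the posterior piece in both genotypes. Anterior levels were 28.8, 32.6, 32.7, 25.4 and 25.4 CPM in control embryos 1 to 5 and 25.3, 23.2, 27.3 and 25.6 CPM in DKO embryos 1 to 4. Posterior levels were 38.3, 43.4, 41.0, 37.1 and 46.3 CPM in controls and 33.7, 36.3, 34.2 and 34.5 CPM in DKO. In the posterior piece every DKO library lay below every control library. The log2 fold change of posterior over anterior was 0.50 in controls (SE 0.0899, adjusted p = 0.00115 by edgeR) and 0.46 in DKO (SE 0.0703, adjusted p = 0.00125). The posterior genotype difference was -0.25 (SE 0.0766) and did not pass (adjusted p = 0.369).

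Eya1 (chromosome 1, 14168954 to 14310235, minus strand), the coactivator mutated in branchio-oto-renal syndrome, varied least of the 9 in anterior controls, with a coefficient of variation of 2.28%. Its anterior levels were 29.4, 28.8, 30.0, 29.6 and 28.4 CPM in control embryos 1 to 5 and 27.9, 25.7, 31.4 and 27.2 CPM in DKO embryos 1 to 4. Its posterior levels were 31.9, 34.2, 34.5, 33.9 and 38.5 CPM in controls and 29.3, 29.3, 25.9 and 25.0 CPM in DKO. The control pieces were apart and the DKO pieces overlapped, and in the posterior piece all DKO libraries lay below all control libraries. Posterior over anterior was 0.24 in controls (SE 0.0567, adjusted p = 0.00716 by edgeR) and -0.03 in DKO (SE 0.0896, adjusted p = 0.878). The posterior genotype difference was -0.33 (SE 0.0817), with an adjusted p of 0.252 by edgeR and 0.021 by DESeq2.

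Six2 (chromosome 17, 85684277 to 85688274, minus strand), the factor of nephron progenitors, was the least abundant of the 3 Six-family genes. Its posterior control libraries 1 to 5 lay close together, at 4.27, 4.59, 4.94, 4.83 and 4.77 CPM, above the anterior ones at 3.96, 2.21, 3.11, 1.95 and 2.40 CPM. The DKO libraries 1 to 4 had 2.09, 2.37, 5.13 and 3.97 CPM anteriorly and 2.84, 4.57, 1.81 and 3.12 CPM posteriorly, so that the pieces overlapped. The log2 fold change of posterior over anterior was 0.78 in controls (SE 0.188, adjusted p = 0.00812 by edgeR) and -0.11 in DKO (SE 0.34, adjusted p = 0.878). DKO embryo 3 had the highest anterior and the lowest posterior Six2 level of its genotype, and without it the DKO value was 0.33.

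Eya3 (chromosome 4, 132638987 to 132724765, plus strand) was the most abundant of the 9 per kilobase in all 4 groups. In control embryos 1 to 5 it stood at 80.5, 90.1, 91.7, 79.1 and 87.4 CPM anteriorly and at 104, 102, 103, 98.8 and 96.1 CPM posteriorly. In DKO embryos 1 to 4 it stood at 82.3, 77.9, 89.4 and 88.0 CPM anteriorly and at 91.6, 91.8, 109 and 81.0 CPM posteriorly. The control pieces were apart and the DKO pieces overlapped. Posterior over anterior was 0.23 in controls (SE 0.0496, adjusted p = 0.00405 by edgeR) and 0.15 in DKO (SE 0.0884, adjusted p = 0.321). The DKO value ran from 0.09 to 0.22 when 1 embryo was left out, and did not pass.

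Of the 7 genes with an entry, all but Eya1 and Eya2, 3 carry the letters TGACAG in a RefSeq promoter window (GRCm38.p6, 250 bases before to 50 after the start). They are shown because Meis1 and Meis2 were the genes deleted; both strands were searched, and 3 of the 10 windows of these genes hold the letters, as do 6300 of all 32851 windows (19.2%). Each sequence runs 5′ to 3′ in the direction of the gene, with the match in capitals, and CTGTCA is the same motif on the other strand. Counted from the start that the window is built on, the first motif base lies 105 bases before it in Six5, 9 in Dach1, and 162 and 235 in Six2. For Six5 and Six2 that start is not the end of the gene interval given above.
Six5, chr7:19094412-19094471, plus strand: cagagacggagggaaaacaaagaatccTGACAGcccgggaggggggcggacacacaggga
Dach1, chr14:98169766-98169801, minus strand: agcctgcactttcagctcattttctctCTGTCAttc
Six2, chr17:85688384-85688443, minus strand: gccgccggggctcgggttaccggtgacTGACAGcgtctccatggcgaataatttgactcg
Six2, chr17:85688457-85688504, minus strand: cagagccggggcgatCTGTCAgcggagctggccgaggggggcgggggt
These are matches of letters and not measured binding. None of these 3 genes passed the test between genotypes in either piece. No match was found in the windows of Six4, Eya3, Eya4 and Dach2.

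Between genotypes, none of the 9 genes passed in the posterior piece by edgeR's quasi-likelihood test, where 0.0126% of 15936 genes (2 genes) were called; 3 of the 9 had an unadjusted p below 0.05, as did 1754 genes in all (11%), DESeq2 called 1 of the 9 (Eya1), and limma-voom none. Of the log2 fold changes 2 were above 0 and 7 below, with a median of -0.25 against 0.011 over all genes. Genotype groups did not overlap for Six4 and Eya1, 2 of the 9 genes, against 4.29% of all genes. Those not yet given were Six2 at -0.59 (SE 0.221, adjusted p = 0.427), Dach1 at -0.42 (SE 0.195, adjusted p = 0.458), Eya4 at -0.28 (SE 0.278), Eya2 at 0.21 (SE 0.152), Eya3 at -0.11 (SE 0.0743), Six5 at 0.08 (SE 0.114) and Dach2 at -0.04 (SE 0.287). Leaving out 1 embryo moved several of these small values by over 1.5 times: Eya4 ran from -0.44 (without control 2) to -0.11 (without control 5), Eya2 from 0.09 (without DKO 2) to 0.32 (without DKO 3) and Eya3 from -0.19 (without DKO 3) to -0.06 (without DKO 4), and none passed. The marker lists that moved with these values in the posterior piece are given with the lists.

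**Figure D4:**
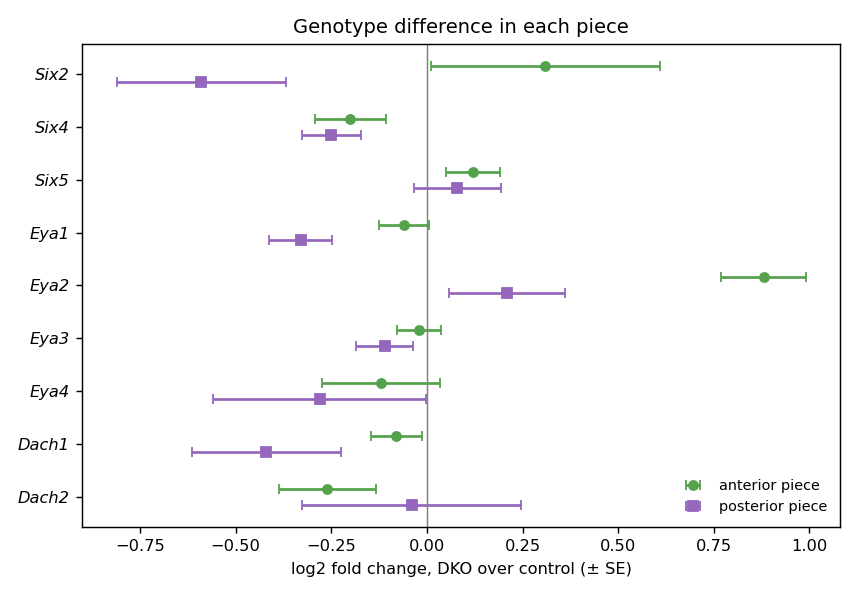
Log2 fold change of DKO over control (horizontal axis) for the 9 genes, with circles for the anterior and squares for the posterior piece and bars for ± SE. Anterior Eya2 at 0.88 lies apart from the rest, and posterior Six4 and Eya1 lie at -0.25 and -0.33 with short error bars.

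Whether the genotype difference itself changed between the pieces was tested as the interaction of region and genotype. By edgeR's quasi-likelihood test 0% of 16428 genes passed, and none of the 9 did; 567 genes (3.45%) and 3 of the 9, Six2, Eya1 and Eya2, had an unadjusted p below 0.05, and DESeq2 called 10 genes, none of them among the 9. The interaction was -0.90 for Six2 (SE 0.39), -0.27 for Eya1 (SE 0.0997) and -0.66 for Eya2 (SE 0.195), each at an adjusted p of 0.999, and it ranged from -0.33 (Dach1) to 0.23 (Dach2) for the other 6. The Six2 value ran from -1.29 (without DKO embryo 2) to -0.47 (without DKO embryo 3) when 1 embryo was left out. The Dach2 value then ran from 0.05 to 0.44, and none of these passed. That Six2, Eya1 and Eya3 passed between the pieces in controls and not in DKO is therefore not shown to be a difference between the genotypes. The interaction shares the anterior libraries on which Eya2 was chosen.

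Embryos also differed in stage. Posterior Dach1 was lowest in the 20-somite embryo of each genotype, at 23.6 CPM in control embryo 2 and 21.3 CPM in DKO embryo 3, and posterior Eya2 was lowest in the same embryos, at 8.93 and 10.1 CPM. Posterior Dach2 went the other way and was highest in both, at 2.45 and 2.19 CPM. Posterior Eya4 was lowest in control embryo 2 (2.36 CPM) and highest in DKO embryo 3 (4.69 CPM), so these genes went no single way in the 2 embryos. Dach1 and Eya2 are plotted as genes chosen after their values were seen. In DKO embryo 3 posterior Six2 (1.81 CPM) and Six5 (20.8 CPM) were also lowest and Eya3 (109 CPM) highest, which was not so in control embryo 2. Each genotype holds 1 embryo of 20 somites, so stage and embryo cannot be told apart. With somite number as a covariate the posterior genotype difference was -0.43 for Dach1 (adjusted p = 0.303 by edgeR) and 0.20 for Eya2 (adjusted p = 0.495), close to the values without it.

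**Figure D5:**
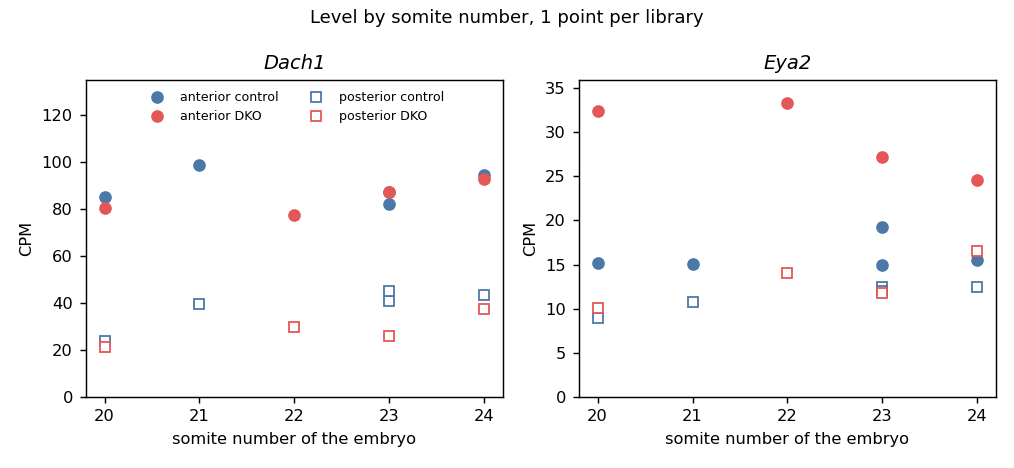
CPM (vertical axis, starting at 0) of Dach1 and Eya2 against the embryo's somite number, with filled circles for anterior and open squares for posterior libraries, and colours for genotype. The 20-somite embryos have the lowest posterior level of both genes in each genotype, 23.6 and 21.3 CPM for Dach1 and 8.93 and 10.1 CPM for Eya2.

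Levels were compared between genes only per kilobase of merged exon. In anterior controls the mean CPM per kilobase was 15.2 for Eya3, 12.2 for Dach1, 10.5 for Six5, 5.4 for Eya2, 3.74 for Eya1, 2.67 for Six4, 1.29 for Six2, 1.02 for Eya4 and 0.59 for Dach2. Neighbours overlapped between libraries for Dach1 with Six5 and for Six2 with Eya4. In anterior DKO the order was the same, but Eya2 at 9.92 overlapped Six5 at 11.4, and Six2 at 1.6 overlapped Six4 at 2.33. In posterior controls Eya3 at 17.8 and Six5 at 8.04 led, and Dach1 at 5.25, Eya1 at 4.43, Eya2 at 3.81 and Six4 at 3.8 followed, each overlapping the next. In posterior DKO the leading means were 16.5 for Eya3, 8.5 for Six5, 4.41 for Eya2 and 3.91 for Dach1.

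The genes whose log2 CPM followed each of the 9 most closely over the 18 libraries were taken from 11816 protein-coding genes. Pearson r is given as a description, since all libraries share the split into pieces. Dach1 was followed most closely by the retinoic acid receptor gene Rarb (r = 0.983), the nuclear receptor gene Nr2f1 (0.981) and the zinc finger homeobox gene Zfhx4 (0.979). Rarb averaged 28.7 ± 2.25 CPM in anterior controls and 9.71 ± 2.64 CPM in posterior controls. Eya4 was followed by Fam102b (0.956), Jam2 (0.956) and again Zfhx4 (0.952), and Dach2 by Slc39a14 (0.949), the embryonic myosin gene Myh3 (0.944) and Phox2a (0.944).

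Eya2 was followed most closely by the muscle determination gene Myf5 (0.946), the neuregulin receptor gene Erbb3 (0.937) and Nrm (0.931). Myf5 averaged 10.2 ± 0.579 CPM in anterior controls, 17.9 ± 3.61 CPM in anterior DKO, 5.57 ± 1.88 CPM in posterior controls and 6.83 ± 2.23 CPM in posterior DKO. Erbb3 averaged 25.2 ± 1.57, 32.7 ± 2.88, 17.5 ± 1.89 and 17.8 ± 3.78 CPM in the same order. Six4 was followed by Crlf3 (0.941), Zfp36l2 (0.936) and the network's partner gene Pax2 (0.934), and Six5 by Metrnl (0.935), the ventral neural tube gene Nkx2-2 (0.914) and Anxa6 (0.913). The closest genes to Eya3 were Lrp4 (0.921), Abr (0.914) and Ppm1f (0.899), those to Eya1 were Lig4 (0.906), Edem3 (0.862) and Man1a2 (0.849), and those to Six2 were Plvap (0.784), Rasgef1b (0.781) and Foxd2 (0.73).

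Other genes of the network were taken from lists by role. Over all genes tested between genotypes, 13% in the anterior and 11% in the posterior piece had an unadjusted p below 0.05. Of 7 Pax genes none passed between genotypes in either piece by edgeR's quasi-likelihood test, with 5 anterior and 3 posterior ones at an unadjusted p below 0.05 (13% and 11% of all genes) and medians of -0.45 and -0.24 against 0 and 0.011 over all genes. In controls, where 25.4% of all genes were called between the pieces, 2 of them were higher in the posterior piece, the renal genes Pax2 (2.38, SE 0.198) and Pax8 (2.23, SE 0.407), and 4 were lower, among them the neural and muscle progenitor genes Pax7 (-1.98, SE 0.251) and Pax6 (-1.43, SE 0.13). Of 9 further Six-family and corepressor genes 7 were tested, Six3 and Six6 being at or under 3 counts in every anterior library. None of the 7 passed between genotypes in either piece by edgeR, with 4 anterior ones and 0 posterior ones at an unadjusted p below 0.05 (13% and 11% of all genes) and medians of 0.09 and -0.01. Between the control pieces 3 of the 7 were called, against the same 25.4%: the corepressor genes Tle4 (0.86, SE 0.0503) and Skil (0.35, SE 0.0836) were higher and Tle1 (-0.34, SE 0.0714) lower in the posterior piece.

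Among 8 genes of the myogenic programme downstream of the network, 7 were tested in the anterior piece. The M-cadherin gene Cdh15 rose from 14.4 ± 1.38 to 23.5 ± 1.77 CPM in DKO (log2 fold change 0.71, SE 0.0899, adjusted p = 0.0286 by edgeR), and Myf5 at 0.80 (SE 0.127) did not pass (adjusted p = 0.0522). Cdh15 was the 1 gene of the 7 called, in a comparison that called 0.0394% of 15238 genes (6 genes). That total ran from 1 to 57 genes when an embryo was left out. The list was chosen with earlier results of these libraries known, so the call is a description with no support drawn from it. Lbx1, a gene of migrating limb muscle precursors, had the largest difference of the 7, in the other direction, at -1.07 (SE 0.479, adjusted p = 0.377 by edgeR), with 7.38 ± 1.19 CPM in controls and 3.55 ± 3.25 CPM in DKO and overlapping groups. Myog at 0.16 (SE 0.184) and the receptor gene Met at -0.06 (SE 0.127) did not pass either. In total, 3 of the 7 had an unadjusted p below 0.05 (13% of all genes), and the median of the 7 was 0.16 against 0 over all genes. Of the 5 tested in the posterior piece none passed between genotypes by edgeR, and 1 had an unadjusted p below 0.05 (11% of all genes), with a median of -0.12 against 0.011. In controls, where 25.4% of all genes were called, 6 of the 7 were lower in the posterior piece, among them Lbx1 (-5.92, SE 0.366) and Myog (-3.35, SE 0.503), and Met was higher (0.28, SE 0.0949).

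The 8 nephrogenic partners of Eya1 and Six2 were all higher in the posterior piece of controls, and 6 passed in DKO (25.4% and 18.5% of all genes were called in these comparisons). None of the 6 tested anteriorly and the 8 tested posteriorly passed between genotypes, with 2 and 4 at an unadjusted p below 0.05 by edgeR (13% and 11% of all genes) and medians of -0.31 and 0.04. The 2 anterior ones were Wt1 at -2.12 (SE 0.436) and Sall1 at 0.14 (SE 0.0599). The 4 posterior ones went both ways, with Wt1 at -1.84 (SE 0.489), Lhx1 at -1.32 (SE 0.328) and Osr1 at -0.42 (SE 0.169) lower in DKO and Gdnf at 0.71 (SE 0.147) higher. Hoxc11 had at most 2 counts in any anterior control library and was at least 102-fold higher posteriorly, taking 3 counts per library as the floor.

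Markers of other cell types in the pieces moved with some of these values, in both directions, and their part in them was not tested. None of the markers named here passed edgeR's test between genotypes. The lists share genes with each other and with those above, so their counts are not separate. Osr1, Lhx1 and Wt1 are on the nephrogenic and intermediate mesoderm lists, and Myf5, Myog and Myod1 on the myogenic and myotome lists. Of the Pax genes, Pax2 is also an intermediate mesoderm marker, and Pax1 and Pax9 are sclerotome markers. Pax8 is the otic and epibranchial marker with an unadjusted p below 0.05 in each piece. In the anterior piece, beside Eya2, the 5 somite markers summed to 327 to 372 CPM in controls and 244 to 307 CPM in DKO, and the 4 sclerotome markers to 67.5 to 98.7 CPM and 44.1 to 65.8 CPM, neither sum overlapping between genotypes. The median log2 fold change was -0.22 for the somite and -0.35 for the sclerotome list. In the other direction, the 6 neural crest and ganglion markers summed to 185 to 211 CPM in controls and 215 to 256 CPM in DKO without overlap. The 5 neural tube markers (327 to 427 CPM and 420 to 463 CPM, median 0.22) and the 5 myotome markers (75.9 to 124 CPM and 97.8 to 139 CPM, median 0.29) overlapped. At an unadjusted p below 0.05 were 4 of 5 somite, 2 of 4 sclerotome, 4 of 6 crest, 4 of 5 neural tube and 2 of 4 tested myotome markers, against 13% of all genes. Among these the somite list was mixed, with Meox1, Twist1 and Tcf15 below 0 and Uncx above it at 0.32 (SE 0.13). The intermediate mesoderm markers had 2 of 4 and a median of -0.93, and the limb field markers 2 of 4 and a median of -0.85, both with sums that overlapped. Of the tested markers of the other lists, 1 of 3 axial bud, 1 of 3 otic and epibranchial, 1 of 4 endothelial, 0 of 4 erythroid and 0 of 2 forebrain and midbrain markers were under that p.

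In the posterior piece, beside Eya1, Six2 and Six4, the 4 intermediate mesoderm markers summed to 56.9 to 68.5 CPM in controls and 24.9 to 44.7 CPM in DKO, without overlap and with a median of -1.23. The somite markers summed to 371 to 535 CPM and 216 to 375 CPM (median -0.53), and the sclerotome markers to 70.7 to 91.6 CPM and 32.1 to 81 CPM (median -0.38). The neural tube markers lay on the other side, at 173 to 238 CPM in controls and 208 to 275 CPM in DKO (median 0.29); among them, named after their values were seen, were the progenitor genes Sox2 at 0.29 (SE 0.0704, adjusted p = 0.252 by edgeR) and Sox1 at 0.33 (SE 0.096, adjusted p = 0.342). At an unadjusted p below 0.05 were 4 of 4 intermediate mesoderm, 3 of 5 somite, 2 of 4 sclerotome and 2 of 5 neural tube markers, against 11% of all genes. The 4 primitive erythroid markers had 2 of 4, with sums of 850 to 1310 CPM in controls and 1040 to 2140 CPM in DKO and a median of 0.45. The neural crest and ganglion markers had 2 of 6, both below 0 (Ets1 at -0.32 and Isl1 at -0.39), with a list median of 0.15 and sums of 117 to 170 CPM and 118 to 176 CPM. Of the tested markers of the other lists, 1 of 2 otic and epibranchial, 1 of 3 limb field, 0 of 4 endothelial, 0 of 4 myotome, 0 of 7 axial bud and 0 of 1 forebrain and midbrain markers were under that p.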

How the data were processed

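Per the labels' protocols, polyA RNA was sequenced as single-end 61 bp reads. The values the authors deposited are expected counts by gene on GRCm38, with CASAVA, cutadapt and RSEM named in the submitters' processing notes. The strand setting is not given in the sources used here, and no exon of the 9 genes overlaps another gene's. Of 53465 identifiers, 53360 matched GENCODE M21. Expected counts were rounded and tested with edgeR 4.0.16 (quasi-likelihood, TMM, filterByExpr with a minimum count of 10, Benjamini-Hochberg over all genes tested, threshold 0.05), fitted on the groups compared and on all 18 libraries for the interaction. CPM use one TMM scale over 18 libraries. DESeq2 1.42.0 and limma 3.58.1 were alternatives, and the edgeR code was tested on simulated data. Pieces were matched to embryos by genotype, sex label and somite number. Deviations from the group means correlated at 0.256 to 0.57 in pieces of the same embryo (9 pairs). Pieces of other embryos of the same genotype gave -0.283 to 0.0916 (32 pairs), so the numbers pair the libraries. Taking out the means of groups this small by itself lowers the values of other embryos. Members and lists were chosen with earlier results of these data known. Named genes were the 9, the 3 closest to each in log2 CPM (prior count 2) among protein-coding genes with a mean count of at least 50, and genes of the lists past the threshold. Comparison of protein sequences was not done here.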

Additional observations from a re-analysis of the deposited data

Results flagged for a closer look

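In 36 groups of 4 or 5 libraries examined, 2 libraries stood apart by Dixon's criterion, which chance meets in about 1 of 20 groups. Anterior control library 1 had Eya2 at 19.3 CPM, with the other 4 at 14.9 to 15.5 CPM (gap to range ratio 0.87). It is the embryo whose female label goes against its Xist and Y-linked counts, and without it the anterior Eya2 difference remained past the threshold. Posterior control library 2 had Dach1 at 23.6 CPM, with the other 4 at 39.3 to 45.0 CPM (ratio 0.734); it comes from the 20-somite control embryo.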

How the results depend on the processing

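Over 746 alternative values of the 9 genes, 725 kept their direction and side of the threshold, 9 lost the threshold, 1 gained it and 11 changed sign. Counts over all genes between genotypes moved with the tool, the filter, the covariates and the embryos included. Anteriorly 6 genes became 296 with DESeq2, 29 with limma-voom, 83 without the filter, 19 in the fit of all 18 libraries, 84 with somite number, 71 with the sex label as covariate, and 1 to 57 when an embryo was left out (57 without DKO embryo 2). Posteriorly 2 became 161 with DESeq2, 14 without the filter, 1 with a mean count of at least 50, 51 in the fit of all 18 libraries, 7 with somite number, and 2 to 24 when an embryo was left out (24 without DKO embryo 2). The interaction, 0 in the main test, became 10 with DESeq2 and 0 to 1 when an embryo was left out; the 2913 genes between pieces in DKO became 1728 to 2550. Of the 9 genes, 0 to 1 passed anteriorly when an embryo was left out, and DESeq2 called 1 posteriorly. Leaving out an embryo changed the sign of 8 results that had not passed: posterior genotype difference of Dach2, -0.19 to 0.13, and Six5, 0.0 to 0.17; anterior Eya3, -0.05 to 0.01; DKO pieces for Eya1, -0.10 to 0.05, and Six2, -0.50 to 0.33; interaction for Eya4, -0.37 to 0.0, Six4, -0.11 to 0.03, and Six5, -0.08 to 0.01. The cause was not tested. With the replicate block, here the embryo, 9, 6 and 0 of the 9 genes passed between pieces in controls, in DKO and in the interaction, and the pairing changed none of their 27 calls; over all genes 5136, 3004 and 0 passed.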
